A study of Mus musculus with 7 samples.

Results

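The olfactory and vomeronasal receptor genes were taken as every RefSeq gene on chromosomes 1 to 19 of the mouse genome (GRCm38) whose symbol starts with Olfr, Vmn1r or Vmn2r. The rule found 2035 of the 46709 RefSeq genes on those chromosomes, of which 1419 were Olfr, 366 Vmn1r and 250 Vmn2r genes. RefSeq annotates 1454 of them as protein-coding, and the other 581 are mostly pseudogenes. Each gene was measured over its gene body with 1000 bp upstream, which came to 10.2 Mb in all, with bases shared by overlapping members counted for each.

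Accessible chromatin was mapped by ATAC-seq, in which the Tn5 transposase cuts and tags DNA that is not packed away, in 7 libraries of sorted cells from the microdissected second heart field region of E9.5 mouse embryos. Of these, 2 were GFP+ cells of the Hoxb1GFP line, whose reporter marks Hoxb1-expressing progenitors, and 2 were Tomato+ cells of Mef2c-Cre;Rosa tdT embryos, in which a Cre driven by a second heart field element of Mef2c switches on tdTomato for good. The other 3 were the reporter-negative cells, 2 labelled GFP- and 1 labelled Tomato-. The peak list of Tomato+ replicate 6 carries a YFP run name in its header, while its GEO label names the Mef2c tdTomato cells; the label was used, and results are also given without that library. Embryos of a genotype were pooled before sorting, and the labels do not tie a library to one pool, so p-values over libraries describe the spread between libraries only.

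Olfr genes encode the odorant receptors of the main olfactory epithelium, Vmn1r and Vmn2r genes the pheromone receptors of the vomeronasal organ. Most sit in large tandem arrays. An olfactory neuron expresses a single allele of a single odorant receptor while the others are held in heterochromatin, and vomeronasal neurons also choose among their receptors, although Vmn2r neurons pair a chosen receptor with a widely expressed member of the family. In other tissues the arrays are known as compact, AT-rich and late-replicating chromatin, so heart progenitors offer a view of them where no receptor choice takes place.

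The receptor intervals were short and AT-rich. Their median length was 1945 bp, from 1132 to 212881 bp, and their median GC content was 38.1%, against 46.3% for other coding genes in the same length range. RefSeq gives 65.8% of the receptor gene bodies a length that is a multiple of 3, against 33.8% of other coding genes in the length range. The share was 70.4% for Olfr, 68.0% for Vmn1r and 36.8% for Vmn2r genes. An excess is what models that hold the coding sequence alone would give. On that reading, the annotated start of many Olfr and Vmn1r members is the start codon and not the place where transcription begins. By 31-base words placed along each interval, 85.2% of members had a median of 1 copy in the genome, with 95.1% for Olfr, 62.6% for Vmn1r and 61.6% for Vmn2r. The other coding genes in the length range stood at 94.7%.

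Sequence at a few receptor regions open in every library serves as examples. The genes were picked by name. The first 3 were taken among CpG-rich regions, as defined below, and the last 4 among regions with 1 genome copy at the summit. The difference in CpG content between them follows in part from this choice and is not a result. The stretches below are read from the plus strand of GRCm38, with CpG pairs in capitals. Each lies at the summit of a region with a peak of -log10 q of at least 2 in all 7 libraries, moved to the nearest stretch free of untranslated exon where a summit fell in one. The first 3 lie at chr7:7278290-7278390 beside the outer start of Vmn2r29, at chr6:56923709-56923809 upstream of the outer start of Vmn1r4, and at chr17:37197215-37197315 in an exon of Olfr94. Coding exon was not avoided, and the Vmn1r4 stretch may hold coding sequence of Nt5c3, a gene on the opposite strand. Read on the minus strand, that stretch begins with ATG and holds no in-frame stop. The last 4 lie inside genes and outside every annotated exon, at chr3:64835982-64836082 in Vmn2r-ps11, chr5:109189535-109189635 in Vmn2r13, chr10:78509752-78509852 in Olfr1358 and chr16:58951775-58951875 in Olfr183.
Vmn2r29: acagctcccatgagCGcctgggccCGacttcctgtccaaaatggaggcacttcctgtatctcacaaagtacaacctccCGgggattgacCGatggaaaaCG
Vmn1r4: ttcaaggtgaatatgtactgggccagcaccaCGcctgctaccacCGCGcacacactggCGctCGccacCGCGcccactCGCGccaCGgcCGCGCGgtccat
Olfr94: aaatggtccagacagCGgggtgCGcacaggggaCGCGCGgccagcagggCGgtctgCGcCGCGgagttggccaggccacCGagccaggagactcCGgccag
Vmn2r-ps11: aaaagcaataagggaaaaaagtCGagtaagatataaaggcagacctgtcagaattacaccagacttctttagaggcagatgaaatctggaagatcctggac
Vmn2r13: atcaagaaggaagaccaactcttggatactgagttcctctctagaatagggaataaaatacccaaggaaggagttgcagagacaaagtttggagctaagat
Olfr1358: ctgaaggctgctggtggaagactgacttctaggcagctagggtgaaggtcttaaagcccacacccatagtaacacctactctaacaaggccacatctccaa
Olfr183: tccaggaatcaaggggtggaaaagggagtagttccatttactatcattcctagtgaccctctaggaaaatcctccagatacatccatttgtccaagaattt
The windows of Vmn1r4 and Olfr94 held 13 and 11 CpG pairs, and that of Vmn2r29 held 5. The other 4 held 0 or 1, and at least 72.3% of the bases in each were soft-masked in the reference, which is how the assembly marks interspersed and simple repeats.

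The upstream sequence of the genes themselves was AT-rich too. RefSeq promoters of 300 bases (250 before and 50 after the annotated start, GRCm38) matched 1260 members, and their median GC content was 35.7% against 53.0% over all 25748 promoters matched. A median receptor promoter held 1 CpG pair and 31.2% held none, against 5.58% of all promoters. The homeodomain word TAATTA, searched on both strands, was in 18.8% of Olfr, 7.28% of Vmn1r and 17.2% of Vmn2r promoters and in 5.27% of all promoters. The EBF word CCCNNGGG was in 3.09% of Olfr, 0.485% of Vmn1r and 18.97% of Vmn2r promoters, against 13.7% of all. The CTCF core CACNAGGNG was in 1.35% of receptor promoters and 4.27% of all. These words differ in base composition, as do the promoters, and a match is not a binding site. The 250 bases before the annotated starts of Olfr1053 (chr2:86315286-86315535, minus strand) and Olfr1062 (chr2:86423675-86423924, minus strand) serve as examples, written 5′ to 3′ with TAATTA in capitals.
Olfr1053: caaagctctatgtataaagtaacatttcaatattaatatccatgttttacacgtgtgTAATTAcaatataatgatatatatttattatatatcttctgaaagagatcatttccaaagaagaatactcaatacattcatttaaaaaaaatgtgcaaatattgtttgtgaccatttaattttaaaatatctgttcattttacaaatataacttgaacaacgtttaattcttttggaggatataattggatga
Olfr1062: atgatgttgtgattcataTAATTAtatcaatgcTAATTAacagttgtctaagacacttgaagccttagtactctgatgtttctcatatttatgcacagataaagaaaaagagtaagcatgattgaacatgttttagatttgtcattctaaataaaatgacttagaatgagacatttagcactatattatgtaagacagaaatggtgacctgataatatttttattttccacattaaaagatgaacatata
Both were selected as coding Olfr genes with TAATTA in these bases and no deposited peak in any of the 7 libraries. Neither trait is therefore a result.

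The receptor genes held few peaks in every library. A peak was counted by its summit, and 1 Mb of receptor interval held 58.4 and 37.6 deposited peaks for the GFP+ cells (replicates 3 and 4) and 48.1 and 34.5 for the Tomato+ cells (replicates 6 and 8). The GFP- cells (replicates 1 and 2) stood at 27.4 and 40.5, and the Tomato- cells (replicate 7) at 34.8. Pairs of values are given in this order of replicates throughout. Other coding genes, weighted to the same interval lengths, stood between 199 and 249 per Mb, and no library of the receptor genes reached that range. The receptor density was 4.26 to 7.24 times lower within a library. On the log2 scale the mean difference was -2.52 ± 0.25 (SD, n = 7 libraries), lower in 7 of 7 (two-sided exact sign-flip permutation test, p = 0.0156, the smallest that 7 libraries allow; Benjamini-Hochberg adjusted p = 0.0254 over 13 tests).

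Peaks with a deposited -log10 q of at least 2 gave the same picture with less spread between libraries. The receptor intervals held 11.6 to 17.3 of them per Mb, and the length-matched coding genes 83.7 to 105. The mean log2 difference was -2.76 ± 0.098 (SD, n = 7), lower in 7 of 7 libraries (exact sign-flip permutation test, p = 0.0156, adjusted p = 0.0254). Expressed as a ratio, receptor genes held 6.76 times fewer. Without Tomato+ replicate 6 the mean log2 differences were -2.56 for all peaks and -2.75 for q-passing peaks.

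**Figure D1:**
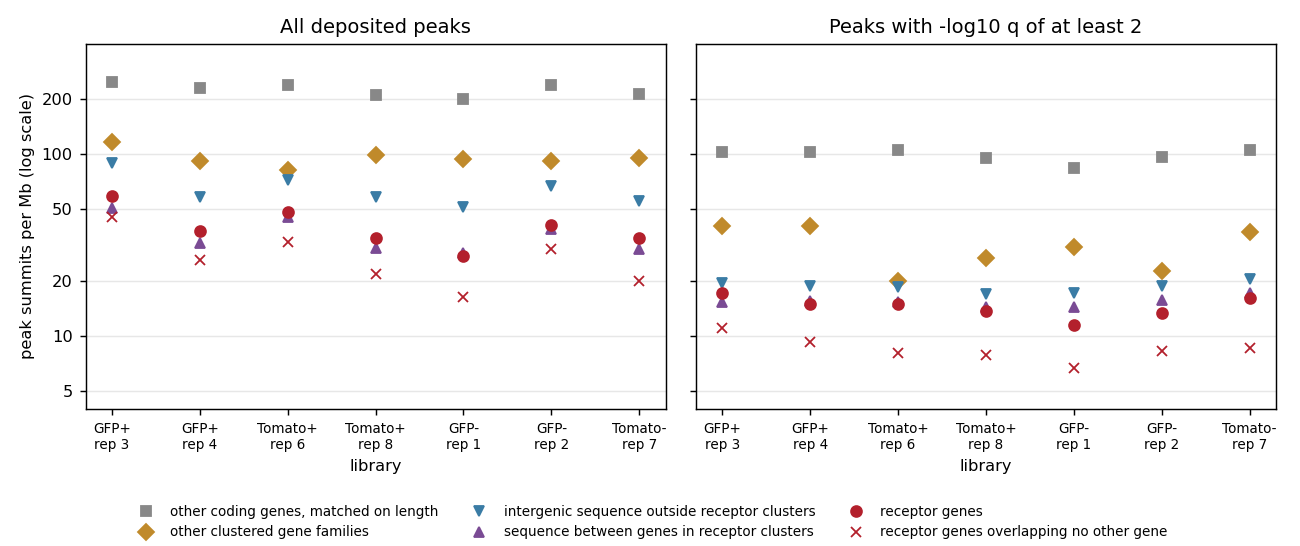
Peak summits per Mb (log axis) in each of the 7 libraries, for all deposited peaks (left) and peaks with -log10 q of at least 2 (right). Red circles are all receptor genes and red crosses those that overlap no other gene; at 16.5 to 45.0 deposited peaks per Mb the crosses lie below every reference set plotted in the same library.

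The size of the difference followed the reference. Against coding genes of the same length and GC content together, the mean log2 difference was -0.86 for all peaks and -1.05 for q-passing peaks (both exact permutation p = 0.0156). Against other clustered gene families with few introns or in tandem arrays (Tas2r, Taar, Mrgpr, Fpr, Krtap and Defb), it was -1.28 and -1.05. Against intergenic sequence it was -0.67 and -0.35. The receptor genes were lower in 7 of 7 libraries in each of these comparisons, but by a much smaller factor than against genes matched on length alone.

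Repeated sequence was measured as well. Among members and other genes whose words had a median of 1 genome copy, the log2 difference was -3.02 for all peaks and -3.59 for q-passing peaks. The receptor genes were lower in 7 of 7 libraries in this set too (exact permutation p = 0.0156). Members that overlap no gene outside the families, 1929 of the 2035, gave -3.16 and -3.64.

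Most receptor genes had no peak at all. Of 2035 members, 1446 (71.1%) had no deposited peak in any library, and 589 (28.9%) had at least 1, against 67.6% of length-matched coding genes and a background of 89.8% over all receptor and coding genes tested. Of the 589, 322 had a peak in a single library. Only 39 members (1.92%) had a deposited peak in all 7 libraries, against 35.7% of matched genes and a background of 73.9%. A q-passing peak in at least 1 library was found in 184 members (9.04%; matched genes 53.0%, background 82.1%). A q-passing peak in all 7 was found in 25 members (1.23%; matched genes 26.3%, background 61.4%). By family these 25 were 5 of 1419 Olfr, 2 of 366 Vmn1r and 18 of 250 Vmn2r genes. Counts per gene also reflect length, since the median interval was 17090 bp for Vmn2r, 1945 bp for Olfr and 1921 bp for Vmn1r.

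Some long members had no peak. The longest members without a deposited peak in any library were Vmn2r-ps57 (44369 bp, chr7:41937560-41980928), the coding gene Vmn2r61 (41703 bp, chr7:42260053-42300755) and Vmn2r-ps123 (36792 bp, chr17:19838565-19874356). All 3 had a median of 1 genome copy, with 22% to 28% of the sampled words repeated.

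The annotated starts were quieter than the rest of the interval. In a window reaching 1000 bp before and 100 bp past the start, receptor genes held 16.96 to 38.4 deposited peaks per Mb, against 30.0 to 64.1 in the remainder of the intervals (mean log2 difference -0.93 ± 0.19, SD, n = 7, lower in 7 of 7; exact permutation p = 0.0156, adjusted p = 0.0254). The log2 difference was smaller among protein-coding members (-0.48), members overlapping no other gene (-0.74) and single-copy genes (-0.55; exact permutation p = 0.0156 each). The families were pooled, and the longer Vmn2r intervals weigh more in the remainder than in the windows. In other coding genes the order was the opposite, with 557 to 618 per Mb in the start window and 99.6 to 147 in the remainder. The starts of all curated transcripts were also used. A start window then held a deposited peak in at least 1 library in 188 members (9.24%; matched genes 49.0%, background 78.2%). A q-passing peak there in all 7 libraries was found in 1 member (matched genes 11.2%, background 34.5%). It was Vmn2r-ps92, a 0.367 kb pseudogene on chromosome 10 with its summit 737 bp upstream, named after its values were seen. In the window at the outer start, which the densities above use, 2 members met the criterion, Vmn2r-ps92 and Vmn1r4 (matched genes 9.36%, background 24.4%). At the outer start of Vmn2r29, a region open in all 7 libraries had its summit inside the window in 6. Of the 1419 Olfr genes, 0 met the criterion under either definition. Since many Olfr and Vmn1r models seem to begin at the start codon, a promoter further upstream would lie outside this window.

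Around the starts, deposited peaks of receptor genes were most frequent just inside the gene, but q-passing peaks were not. In the first 1 kb downstream the density was 54.5 deposited peaks per Mb on average over libraries (27.0 to 92.4), against 20.4 (13.3 to 32.9) in the 1 kb upstream and 17.6 (9.83 to 27.0) in the second kilobase downstream. The same first kilobase held 681 per Mb in other coding genes. The q-passing peaks of receptor genes stood at 11.3 per Mb in the first kilobase downstream, 6.11 in the kilobase upstream and 3.79 in the second kilobase downstream. They were denser farther away, with 22.7 per Mb (19.7 to 24.6) between 4 and 5 kb downstream, the highest of the 1 kb bins within 20 kb. The distant bins run past the end of most receptor genes.

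**Figure D2:**
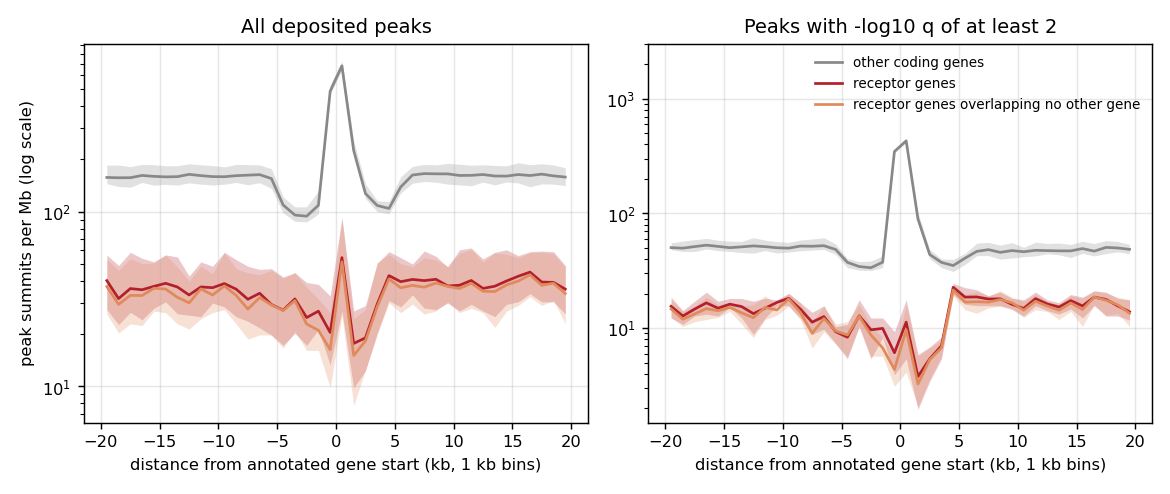
Peak summits per Mb (log axis) in 1 kb bins within 20 kb of the annotated gene start, for all deposited peaks (left) and q-passing peaks (right). Lines are means and bands the lowest and highest of 7 libraries; other coding genes rise to 681 per Mb in the first kilobase, and receptor genes reach 54.5.

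The sequence between the genes was also poor in peaks. Members were chained at gaps of at most 1 Mb into 94 clusters of any size. The intergenic bases within them held 28.5 to 50.4 deposited peaks per Mb over the 7 libraries, against 51.4 to 89.7 in all other intergenic sequence (mean log2 difference -0.83 ± 0.083, SD, n = 7, lower in 7 of 7; exact permutation p = 0.0156, adjusted p = 0.0254). For q-passing peaks the values were 14.5 to 17.3 and 16.97 to 20.6 (-0.27 ± 0.044, p = 0.0156 by the same exact test, adjusted p = 0.0254). The low density was not limited to the annotated genes, and for q-passing peaks the difference between the genes was small. This comparison was added after the data were seen.

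Base composition moved with the peaks among the members, with the families pooled. Among the fifth of members with the lowest GC content (26.8% to 35.3%), 48 of 407 (11.8%) had a deposited peak in at least 1 library. The shares in the following groups were 17.7%, 24.5% and 28.8%, and 252 of 407 (61.9%) had one among the most GC-rich, at 41.5% to 55.1%. The median interval was 1945 to 1948 bp in all of these groups. From the lowest to the highest GC content, their intervals summed to 1.75, 2.47, 2.33, 2.59 and 1.02 Mb. Mean length therefore differed, and the densities below were not matched on length. The mean density rose from 6.51 to 124 deposited peaks per Mb, and that of q-passing peaks from 1.79 to 28.3, with 32.9 in the group next to the highest. That group holds Vmn2r-ps15, Vmn2r-ps16 and Vmn2r-ps17, long pseudogenes that overlap genes outside the families. Among members overlapping no gene outside the families, the densities from the lowest to the highest group were 6.42, 10.2, 18.9, 32.9 and 119.6 deposited peaks per Mb and 1.63, 4.14, 6.98, 14.2 and 26.4 q-passing peaks per Mb. GC content also affects amplification and transposition in ATAC-seq, and its part in these shares was not tested.

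The 3 families were not alike. The Olfr genes held 24.9 to 72.0 deposited peaks per Mb, Vmn1r genes 7.22 to 26.5 and Vmn2r genes 32.1 to 53.6. Vmn1r lay below Olfr in 7 of 7 libraries (mean log2 difference -1.67 ± 0.31, SD, n = 7; exact permutation p = 0.0156, adjusted p = 0.0254), and in 6 of 7 for q-passing peaks (-0.55 ± 0.52, exact p = 0.0313, adjusted p = 0.0406). The second difference rested on 3 to 8 Vmn1r peaks a library and was lost among protein-coding members (exact permutation p = 0.172), in single-copy genes (p = 0.266) and when any of 6 libraries was left out (p = 0.0625), which are GFP- replicate 1, both GFP+, both Tomato+ and the Tomato- library.

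Vmn2r against Olfr genes gave another picture, and the comparison turned on which members were counted. Interval length was not matched between the families, and the median was 17090 bp for Vmn2r against 1945 bp for Olfr. The mean log2 difference was -0.016 ± 0.31 for all peaks (exact permutation p = 0.828), and +1.13 ± 0.24 for q-passing peaks, higher in 7 of 7 libraries (exact p = 0.0156, adjusted p = 0.0254). Among protein-coding members, the values were -1.17 (exact p = 0.0156) and +0.019 (exact p = 0.844). The q-passing difference was +0.27 among members overlapping no other gene (exact permutation p = 0.0469) and +0.31 in single-copy genes (exact permutation p = 0.0156).

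**Figure D3:**
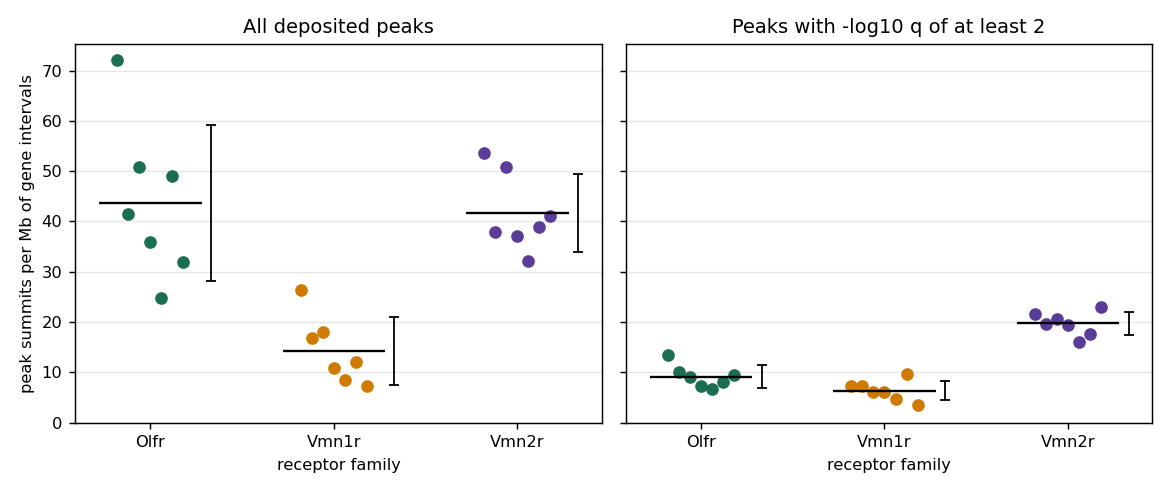
Peak summits per Mb of receptor gene intervals by family, for all deposited peaks (left) and q-passing peaks (right). Each point is 1 of 7 libraries, the line is the mean and the bar 1 SD; Vmn1r lies lowest among all peaks and Vmn2r highest among q-passing peaks.

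A small number of members held much of the signal. Peaks were summed over members and libraries, so a peak inside overlapping members counts for each. Of 2861 receptor peaks summed in this way, 724 (25.3%) lay in 3 pseudogenes on chromosome 4, Vmn2r-ps16 with 305, Vmn2r-ps17 with 224 and Vmn2r-ps15 with 195. Their intervals span 161377, 141140 and 75243 bp. Some recurrent summits in Vmn2r-ps16 and Vmn2r-ps17 also lie in Zfp992, Zfp993 and Zfp600, of the zinc finger family. Those in Vmn2r-ps15 lie in the pseudogenes Gm13244 and Gm13243. The 106 members that overlap a gene outside the families held 1287 of the 2861 peaks (45.0%). A peak in such an interval cannot be assigned to the receptor gene alone.

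The 10 members with the strongest peaks in every library, ordered by the weakest of their 7 best fold enrichments, were Vmn2r29, Vmn2r-ps11, Vmn2r13, Vmn2r-ps23, Vmn2r-ps17, Vmn2r36, Olfr1358, Vmn1r4, Vmn2r-ps16 and Vmn2r7. They are not 10 separate receptor sites. In every library but Tomato+ replicate 6, the best peak of Vmn2r-ps23 lay in a region with its summit 208 bp from the start of another coding gene, 5430403G16Rik. Vmn2r7 lies inside Vmn2r-ps11, and its recurrent regions count for both, at summits with 539 and 1189 genome copies. Fold enrichment here is the deposited ratio of coverage at the summit to the background of the same library. Vmn2r29 led, with GFP- at 18.7 and 19.2, GFP+ at 19.5 and 21.04, Tomato+ at 21.2 and 24.2, and Tomato- at 22.2. GFP- was lowest, GFP+ next and Tomato+ highest without overlap, and Tomato- lay between the Tomato+ libraries, the lower of which is replicate 6. Its 2 strongest summits stand 859 bp apart outside its exons, in sequence with 13 and 68 genome copies. The peak at its outer start (chr7:7277681-7278503, 71.6% GC) was a different one, at 10.2 to 15.8-fold.

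Vmn2r-ps11, a transcribed pseudogene with an interval of 212881 bp on chromosome 3, reached 22.8 and 22.3 in the GFP-, 16.5 and 19.3 in the GFP+, 19.8 and 25.6 in the Tomato+ and 24.1 in the Tomato- cells. Its GFP+ values were the lowest of the 7, and it overlaps no gene outside the families. Vmn2r13 reached 15.9 and 14.3 in GFP-, 11.4 and 12.01 in GFP+, 13.1 and 16.9 in Tomato+ and 18.8 in Tomato-. Again the GFP+ libraries were lowest. The orders of groups in these 3 genes were noticed among 25 members and carry no test.

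Among the odorant receptors, Olfr1358 on chromosome 10 had its best fold enrichment at 10.1 and 8.26 in GFP-, 7.99 and 10.1 in GFP+, 8.48 and 10.1 in Tomato+ and 11.4 in Tomato-. The groups overlapped, apart from the single Tomato- library, which was highest. Its summits lie 11.2 and 11.6 kb downstream of the outermost start, outside its exons and within the lncRNA gene Gm47944. The other 4 Olfr genes with a q-passing peak in all 7 libraries were Olfr183 (6.51 to 10.2-fold), Olfr94 (5.67 to 7.22-fold), Olfr287 (5.004 to 8.28-fold) and Olfr658 (3.52 to 7.64-fold). Olfr94 stands apart in sequence, since its region on chr17:37196772-37197715 has 72.6% GC at the summit, 23 CpG pairs within 100 bases either side of it, and 1 genome copy. It was the only CpG-rich one of the 6 Olfr regions open in every library, and it lies 701 bp into a gene of 1.161 kb.

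Of the Vmn1r genes, Vmn1r4 and Vmn1r63 met the criterion. Vmn1r4 had 7.43 to 10.5-fold at a summit 27 bp from its outermost predicted start, in 72.6% GC sequence that is also an exon of Nt5c3, a nucleotidase gene on the opposite strand. A peak there cannot be assigned to either gene. Vmn1r63 had 5.004 to 8.87-fold outside its exons, at a pair of summits 243 bp apart.

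Joining overlapping peaks across libraries gave 1545 receptor regions, and 1114 of them (72.1%) came from 1 library alone, against 69.5% of regions in other coding genes. Regions that passed q in all 7 libraries numbered 48, with 6 in Olfr, 3 in Vmn1r and 39 in Vmn2r genes. The intervals of these families came to 3.86, 0.831 and 5.48 Mb. Of these 48, 34 (70.8%) were at least 50% soft-masked, 28 (58.3%) had a summit with at least 2 genome copies and 9 (18.8%) were CpG-rich, defined as GC of at least 60% with at least 10 CpG pairs within 100 bases either side of the summit. Among 12712 such regions in other coding genes the shares were 10.4%, 11.1% and 70.1%. The median GC at the summit was 49.5% in receptor regions and 66.2% in the others. The recurrent receptor regions were also narrower, with a median of 384 bp against 935 bp. For 26 of the 48, another recurrent summit lay within 1 kb, and 12 lay within 1 kb of an annotated start of any gene. These last counts were not made for other coding genes, so they are not shown to be particular to receptor regions.

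**Figure D4:**
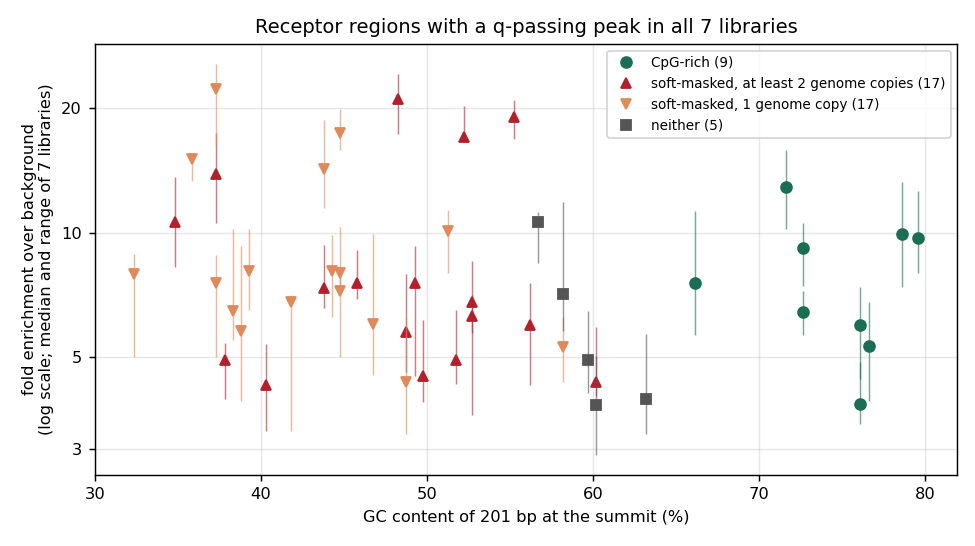
Fold enrichment at the summit (log axis; symbol, median of 7 libraries; line, lowest to highest) against the GC content within 100 bases either side of the summit for the 48 receptor regions with a q-passing peak in every library. The 9 CpG-rich regions lie above 60% GC; 34 soft-masked regions, 17 of them at summits with 1 genome copy, hold the highest values.

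The same words were searched in these regions, on both strands. Within 100 bases either side of the summit, TAATTA was in 2 of 48 (4.17%) and in 0.629% of the recurrent regions of other coding genes. CCCNNGGG was in 6 (12.5%), against 13.7%, and CACNAGGNG in 0, against 3.87%.

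Receptor peaks overlapped those of other genes in height. Their median fold enrichment was 2.71 to 2.99 in the 7 libraries, against 2.59 to 2.89 in other coding genes, and 3.45 to 4.03 against 3.45 to 3.95 for q-passing peaks. The q-passing receptor peaks were shorter, with medians of 149 to 185 bp against 252 to 283 bp. In a pair of replicates, 27.1% to 48.5% of receptor peaks overlapped a peak of the other replicate, against 32.4% to 40.2% for other genes. For q-passing peaks the shares were 57.1% to 78.3% and 68.0% to 73.2%. At least 2 genome copies were found at 55.0% to 61.7% of q-passing receptor summits and at 11.4% to 12.9% of the others.

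A smaller share of receptor peaks passed the q threshold. The shares were 29.6% in GFP+ replicate 3 (Wilson 95% interval 26.1 to 33.4), 40.1% in GFP+ replicate 4, 31.3% and 39.9% in the Tomato+ cells, 42.3% and 33.01% in the GFP- cells and 46.9% in the Tomato- cells. Length-matched genes stood at 40.1% to 49.2%. The mean difference was -6.18 ± 4.75 percentage points (SD, n = 7), lower in 6 of 7 (exact permutation p = 0.0313, adjusted p = 0.0406). It was lost when GFP- replicate 2 or any GFP+, Tomato+ or Tomato- library was left out (exact permutation p = 0.0625, from -5.05 to -6.82 points).

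Fewer receptor peaks lay in read-rich surroundings. For a peak in a read-rich place, the caller uses a local background above the genome-wide level, and this was so for 20.9% to 42.1% of receptor peaks, against 63.1% to 76.6% of peaks in length-matched genes. The mean difference was -37.3 ± 2.63 points (SD, n = 7), lower in 7 of 7 (exact permutation p = 0.0156, adjusted p = 0.0254). Under matching on length and GC together it was -10.2 points (exact p = 0.0156).

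The clusters differed widely in density. Chaining members at gaps of at most 1 Mb gave 34 clusters with at least 10 members, which held 1888 of the 2035 genes. The densest were Olfr288 to Olfr278-ps1 on chromosome 15 with 12 genes and 232 deposited peaks per Mb on average (146 to 292 over libraries), Olfr522 to Olfr542-ps1 on chromosome 7 with 25 genes and 154 (57.4 to 244), and Olfr30 to Olfr225 on chromosome 11 with 26 genes and 153 (58.0 to 246). The mean of the first of these lay within the range of length-matched coding genes. The sparsest were Vmn2r90 to Vmn1r-ps150 on chromosome 17 with 62 genes and 4.72 (1.07 to 12.8), Olfr24 to Olfr18 on chromosome 9 with 51 genes and 5.65 (0 to 16.9), and Vmn2r-ps62 to Vmn2r79 on chromosome 7 with 61 genes and 5.69 (0 to 17.1). In the last of these no library had a q-passing peak in a receptor interval.

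In the largest array, Olfr987 to Olfr1274 on chromosome 2, 255 of 293 genes had no peak in any library. The mean density was below that of other intergenic sequence in 27 of the 34 clusters. Across the 34 clusters, density rose with the median GC content of the genes, from 35.2% to 47.5% (Pearson r = 0.85, Spearman rho = 0.64). The clusters share all libraries and their depth, so this is a description and not a test.

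**Figure D5:**
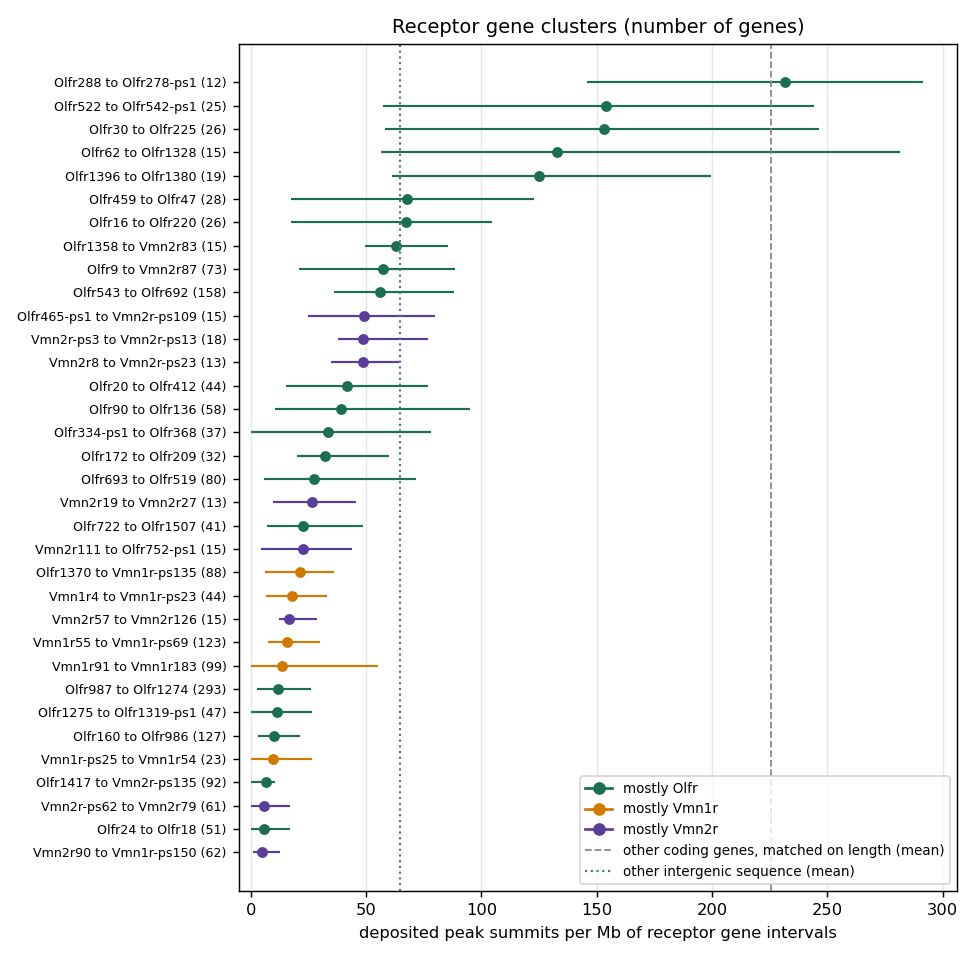
Deposited peak summits per Mb of receptor gene intervals in the 34 clusters with at least 10 genes (number of genes in brackets). Points are means and lines the lowest to highest of 7 libraries; 27 clusters lie left of the dotted line for other intergenic sequence and 1 lies right of the dashed line for length-matched coding genes.

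Some genes of other kinds inside the arrays had open starts. Within the clusters lie 342 coding genes with other symbols. Of these, 77 (22.5%) had a q-passing peak in a start window in all 7 libraries, against 38.5% of coding genes outside. The 342 include V1ra8 and V1rd19, vomeronasal receptor genes under symbols that the rule missed. They also include Gm genes of many genome copies, such as Gm8600 with a median of 70, whose family was not examined. The strongest were the zinc finger genes Zfp128 (11.5 to 14.8-fold), Zfp28 (10.1 to 13.5-fold), Zfp40 (9.56 to 14.1-fold) and Zfp317 (9.25 to 13.7-fold), and Trim68 (9.19 to 11.1-fold), a ubiquitin ligase gene in the chromosome 7 Olfr array. In 117 of the 342, no library had a deposited peak in a start window. The globin genes lie in that same array, and 0 of 5 (Hbb-y, Hbb-bh1, Hbb-bh2, Hbb-bs and Hbb-bt) had such a peak in every library. The embryonic globin genes Hbb-y (4.10-fold) and Hbb-bh1 (3.88-fold) had one in the Tomato- library alone, where Hbb-bs also had a deposited peak that did not pass q (2.81-fold).

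The machinery of receptor expression gave a mixed picture, counted as genes with a q-passing start-window peak in all 7 libraries (background 34.5%). Of the olfactory transduction genes, 2 of 10 met it, the G protein subunit gene Gnal (3.58 to 5.72-fold) and its exchange factor Ric8b (7.08 to 12.1-fold). The channel genes Cnga4 and Cngb1, the receptor transport genes Rtp1 and Rtp2 and the neuronal marker Omp had a q-passing peak in none. The adenylyl cyclase gene Adcy3 had one in 6 libraries, and Gng13 and Ano2 in 5. Of the vomeronasal transduction genes, the G protein genes Gnai2 (6.15 to 7.71-fold) and Gnao1 (4.29 to 7.58-fold) met it in all 7 libraries, and the channel gene Trpc2 in 1. Most of these genes also serve other tissues.

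The genes that govern receptor choice in neurons were mostly open at their starts. The share over all coding genes outside the receptor families was 38.2%. Of 10 genes with a part in receptor choice, 8 met the criterion, the factors Lhx2, Ldb1, Ebf1, Ebf2, Ebf3, Ebf4 and Atf5 and the lamin B receptor gene Lbr. Kdm1a, a histone demethylase, had such a peak in 6 libraries and Emx2 in 4. Of 10 genes for the silencing of receptor arrays, 6 met it, among them the H3K9 methyltransferase genes Setdb1 (4.78 to 7.61-fold) and Suv39h2 (7.399 to 11.6-fold), their partner Trim28 and the HP1 genes Cbx1 and Cbx3. The sixth was the H4K20 methyltransferase gene Kmt5c. Cnga2 and Suv39h1 lie outside chromosomes 1 to 19 and were not counted.

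Cell type markers did not set them apart by this criterion. Of 10 cardiac progenitor markers, 3 had a q-passing start-window peak in every library (Isl1, Mef2c and Aldh1a2), a share no higher than the background of 34.5%. Gata4 had one in 6 libraries, Hoxb1 in 5, Nkx2-5, Hand2 and Osr1 in 2, Tbx5 in 1 and Hand1 in 0. Of the olfactory sensory neuron markers, 3 of 6 met it (Gnal, Lhx2 and Ebf1), while the defining markers Omp and Cnga4 had none. Of 4 erythroid markers, 0 met it. The labelled cell type was therefore not checked by these counts.

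The receptor density was not shown to differ between the sorted populations. The log2 ratio to length-matched genes was -2.09 and -2.61 in GFP+, -2.30 and -2.62 in Tomato+, -2.86 and -2.56 in GFP- and -2.62 in Tomato-. Reporter-positive libraries averaged 0.27 above the negative ones (two-sided exact permutation test, p = 0.229; 4 against 3 libraries cannot go below 0.0571), and GFP+ 0.11 above Tomato+ (exact p = 0.667; 2 against 2 cannot go below 0.333). Without Tomato+ replicate 6 these differences were 0.24 (exact permutation p = 0.4) and 0.26 (exact permutation p = 0.667). The values of the groups overlapped, and mouse line and population cannot be told apart in the second comparison. No member had a q-passing peak in both GFP+ libraries and no peak in any other, and likewise for Tomato+.

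Depth and list length moved with these values. As inferred from the background in each list, the libraries held 52340120 to 93074895 tags, and they list 187914 to 291287 peaks, of which 64306 to 77746 pass q. The libraries with the fewest tags, Tomato+ replicate 6 and GFP+ replicate 3, list the most peaks and have the highest receptor densities over all peaks. Their part in the differences between groups was not tested. Restricting every list to its 30000 strongest peaks gave a receptor difference of -3.07 on the log2 scale (exact permutation p = 0.0156, n = 7).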

How the data were processed

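ATAC-seq was analysed in 7 libraries from the peak lists the authors deposited, 1 list per library. Per the methods, paired-end reads were aligned with SNAP to GRCm38, duplicated, secondary, improperly paired and blacklisted reads were removed, and narrow peaks were called with MACS2 (2.1.1). A header survives in 1 list (Tomato+ replicate 6), which has a YFP run name and names MACS 2.1.0.20150731, no control, a p-value of 0.01, a shift of 37 bp and extension of 73 bp, applied to each tag. No adjustment for the Tn5 insertion offset beyond this shift, and no rule for reads that match several places, is given in the sources used here. The deposited columns hold coverage signal at the summit (not scaled for depth), the -log10 p-value, the -log10 q-value and the fold enrichment ratio over background. The lists precede the study's filter for reproducible peaks.

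Summits of 1 peak were reduced to the one of smallest p. Peaks were counted by summit in gene bodies with 1000 bp upstream, from RefSeq GRCm38.p6. Other coding genes were standardised to the members in 10 length bins, weighted by member bases; bins with under 20 other genes hold 15.5% of member bases. Fold enrichment is (pileup + 1) over (background + 1), from which background was recovered; tag totals follow from its minimum, given tags extended to 73 bp over 1870000000 mappable bp. Start windows of lists, embedded genes and gene counts use all curated RefSeq transcripts, or the outer start where there is none; the start-window density uses the outer start. Copies are exact 31-mer matches over chromosomes 1 to 19, X and Y.

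Libraries were grouped by their GEO titles. Differences within libraries were tested by exact sign-flip permutation over 7 libraries, differences between groups by exact permutation, all two-sided, with Benjamini-Hochberg adjustment over 13 tests. Intervals cover counting error only. Genes were named by rule: members with q-passing peaks in all 7 libraries (at most 10, by lowest fold enrichment), those with most and, among the longest, no peaks, the extreme clusters, embedded genes with open starts (at most 5), and listed genes; others were named after their values were seen. The counts at outer starts and the GC groups without overlapping members were added after seeing the data. Members and lists were chosen with earlier results of these data known. Python 3.11.15, numpy 2.4.6, pandas 2.3.3, pysam 0.24.0 and numba 0.67.0 were used, and the counting and tests were tested on simulated data.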

Additional observations from a re-analysis of the deposited data

How the results depend on the processing

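Of 146 alternatives over 13 results, 120 kept direction and side of the threshold, 15 lost the threshold, 4 newly passed it and 7 changed sign. The lower receptor density kept its direction and call under every alternative run, from -3.23 to -0.67 (log2) for all peaks and from -3.70 to -0.35 for q-passing peaks, smallest against intergenic sequence. The lowest values keep summits with 1 genome copy only, which drops 45.6% to 53.3% of receptor summits and 7.10% to 7.84% of the others without shortening the intervals, so that a lower ratio, for Vmn2r against Olfr too, follows in part from its construction. Leaving out 1 library in turn gave -2.59 to -2.47 and -2.79 to -2.74, with exact p = 0.0313, the smallest that 6 libraries allow.

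The share of receptor peaks past q ranged from -7.24 to -5.05 points with 1 library left out, with exact permutation p up to 0.0625. Vmn1r against Olfr for q-passing peaks was -0.27 among protein-coding members (p = 0.172, exact permutation) and -0.27 in single-copy genes (p = 0.266, exact permutation), and -0.69 to -0.41 with 1 library left out. Vmn2r against Olfr for all peaks was -1.17 among protein-coding members, -1.10 among members overlapping no other gene, -0.91 in single-copy genes and -1.29 for summits with 1 genome copy, each with exact permutation p = 0.0156; with 1 library left out it ran from -0.080 to 0.052 and changed sign without GFP- replicate 2 or either GFP+ library. For q-passing peaks it was 0.019 among protein-coding members and -0.19 for summits with 1 genome copy. GFP+ against Tomato+ changed sign with the 30000 peaks of smallest p (-0.30) and without GFP+ replicate 3 or Tomato+ replicate 8, over a range of -0.15 to 0.37 with 1 library left out. The cause of the other changes was not tested. Merged intervals, summits with 1 genome copy and the comparison of intergenic sequence were chosen after seeing the data.

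No paired analysis was possible because no replicate number is shared between groups. Signal below the caller's limit of p 0.01 is not listed, so an interval with no deposited peak is not shown to be closed.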
